A study of Mus musculus with 48 samples.

Results

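Solute carriers are the membrane proteins that move amino acids, sugars, ions, metals, nucleotides and vitamins across the plasma membrane and the membranes of organelles. The solute carriers described here are the genes named Slc or Slco that reached a mean of 5 CPM (a gene's counts scaled to the total of its library) in one or more of 6 groups of sorted mouse spleen cells. The count files listed 394 Slc and Slco genes among 54735 genes. Of these, 173 met the level and form the set, 211 stayed below it in every group, and 10 were left out by name. The 10 were the iron and heme transporters Slc40a1, Slc48a1, Slc11a1 and Slc11a2, the red cell anion exchanger Slc4a1, the glucose and lactate transporters Slc2a1, Slc2a3, Slc16a1 and Slc16a3, and the cystine transporter Slc7a11. The members were grouped by the substrate that their family carries. The rule used the expression levels themselves, so that a member reaching 5 CPM in some groups only had to differ between groups. For this reason the 127 members that reached it in every group are counted apart from the 46 that did not. For the latter the differences are a description, given without p-values. Members just inside the cut-off were Slc35g1 at 5.0, Slco3a1 at 5.08, Slc19a2 at 5.2 and Slco4c1 at 5.21 CPM in their highest group. Just outside it were Slc25a42 at 4.88, Slc30a4 at 4.86, Slc25a43 at 4.69 and Slc38a5 at 4.64 CPM.

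The study asked how red pulp macrophages (RPMs), the macrophages of the splenic red pulp that take up aged red cells and recycle their iron, arise from monocytes, and whether the IL-33 receptor subunit ST2, encoded by Il1rl1, takes part. Cells of male mice aged 10 weeks were sorted as monocytes (Ly6Glo CD11bhi F4/80-), pre-RPMs (Ly6Glo CD11bhi F4/80lo) and RPMs (Ly6Glo CD11blo/- F4/80hi). All mice were Balb/c, and were either wild type (WT) or Il1rl1-/-. Each of the 6 groups held 4 libraries, numbered by mouse, and each library came from the cells of a single mouse. The labels name no treatment. The Il1rl1-/- label stands for a loss in the whole animal, so that an effect inside the sorted cells and one from the rest of the animal cannot be told apart.

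The 24 libraries held 3562367 to 6559454 counts, of which 24.4 to 38.8% fell on the ribosomal RNA locus Gm42418, and levels were therefore taken over the total without it. On that scale 3 counts equalled 0.708 to 1.182 CPM. Each of the 24 libraries lay nearest to another library of its own cell type. Il1rl1 itself went against the labels in 2 cell types, with 12 to 28 counts in WT and 51 to 73 in Il1rl1-/- monocytes, 13 to 24 against 42 to 76 in pre-RPMs, and 5 to 13 against 1 to 7 in RPMs. Hence the second genotype is named here as the libraries labelled Il1rl1-/-. The 10 RPM markers summed to 9600–12300 CPM in WT RPMs and to 236–533 in WT pre-RPMs, whereas the 8 monocyte markers summed to 31.5–117 and 2870–4550. Markers of other cells were present in some libraries. The 6 natural killer (NK) cell markers summed to 763–2500 CPM in WT monocytes, 93.4–190 in WT pre-RPMs and 14.6–54.6 in WT RPMs. The 6 erythroid markers summed to 1580–30100 CPM in WT RPMs and to 13.7–648 in WT pre-RPMs. Called from WT pre-RPMs to WT RPMs were 10 higher of 10 RPM markers, 8 lower of 8 monocyte markers, 6 higher of 6 erythroid, 3 lower of 4 NK, 3 lower of 3 neutrophil, 2 higher of 3 T cell, 0 of 5 B cell, 0 of 3 plasma cell, 1 higher of 2 eosinophil, 2 lower of 2 basophil and mast cell, 1 lower of 1 platelet, and 1 higher and 1 lower of 2 dendritic cell markers tested. In a mixed sample, fewer cells of a type and less RNA per cell cannot be told apart.

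Some transporters of this superfamily let a solute pass down its own gradient, as the Slc2 glucose transporters do, some exchange one solute for another, and some draw on an ion gradient such as that of sodium or protons to move a solute uphill. Macrophages that digest red cells must pass the amino acids, sugars, nucleosides and metal ions of the digested cell out of the lysosome and often out of the cell. Several carriers work only with a partner, such as the heavy chain Slc3a2, which brings the Slc7 light chains to the cell surface.

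Most members, 127 of 173, reached 5 CPM in every group, which does not mean that their levels were alike. The number of members at 5 CPM was 147 in WT monocytes, 139 in WT pre-RPMs and 152 in WT RPMs, and 147, 143 and 154 in the matching groups labelled Il1rl1-/-. Both RPM groups alone held 15 members, both monocyte groups alone held 3, and both pre-RPM groups alone held 0. The members fell into 43 families. Mitochondrial carriers were the most numerous class with 32 members of 47 genes listed, followed by amino acid and peptide transporters with 27 of 69, transporters of ions, acid and phosphate with 24 of 58, nucleotide sugar and acetyl-CoA transporters with 21 of 28, and metal transporters with 20 of 29. Organic anion and cation transporters were the class with the smallest part in use: 13 of 64 reached the level, and 4 of those did so in every group. In addition, 4 members carry a transporter's name without being one, among them the scaffold protein Slc9a3r1.

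The summed level of the 173 members was 3850 ± 244 CPM in WT monocytes, 4330 ± 95.5 in WT pre-RPMs and 7170 ± 707 in WT RPMs (SD, n = 4). Without the mitochondrial carriers Slc25a37 and Slc25a39, which are described below with red cell transcripts, the sums were 3820 ± 239, 4280 ± 81.6 and 6610 ± 277 CPM. The RPM libraries thus lay above the others with and without this pair. The level rule favored this order, since 15 members reached 5 CPM in both RPM groups alone and 3 in both monocyte groups alone. In the groups labelled Il1rl1-/- the sums of all members were 3930 ± 241, 4570 ± 85.5 and 7510 ± 247 CPM. Per kilobase of exon, the ADP/ATP carrier Slc25a5 was the highest member in each of the 6 groups, with 65.1 ± 20.9 CPM per kb in WT monocytes, 90.5 ± 13.3 in WT pre-RPMs and 67.5 ± 8.63 in WT RPMs. In WT monocytes it was followed by Slc9a3r1 at 50.2 ± 10.1, the mitochondrial pyrimidine nucleotide carrier Slc25a33 at 43.6 ± 15.0 and the choline transporter Slc44a2 at 18.0 ± 3.07 CPM per kb. In WT RPMs, apart from Slc25a37 and Slc25a39, the next were Slc45a3 at 44.1 ± 1.65, Slc3a2 at 42.0 ± 4.46 and Slco2b1 at 38.2 ± 5.7 CPM per kb. None of these 3 was among the 10 highest members of WT monocytes or WT pre-RPMs.

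The comparison of pre-RPMs with RPMs addressed which transporters separate the precursor from the mature macrophage. In WT libraries, 39 members were higher and 13 lower in RPMs among 165 tested (edgeR, Benjamini-Hochberg adjusted p under 0.01 and a change of more than 1 on the log2 scale). These 52 members were 31.5% of those tested, while 24.7% of all 11239 genes tested were called. The share called higher was 23.6% for the members against 14.0% for all genes, and the share called lower was 7.88% against 10.7%. Among the 127 members at 5 CPM in every group, 23 were higher and 7 lower, which is 23.6% called and close to the background. Among the 38 tested of the other 46 members, 16 were higher and 6 lower, a share of 57.9% that the level rule itself favored. The median change was 0.31 on the log2 scale over the 165 members and 0.13 over the 127, against -0.0 over all genes. The largest falls among the called members were those of Slc2a6, by 21.6-fold, and Slc22a15. The groups of 4 libraries did not overlap for 93 members, where 46.4% of all genes had groups apart, and 112 members had an unadjusted p under 0.05, where 56.1% of all genes did. The heat map of called members shows both blocks in every library.

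**Figure D1:**
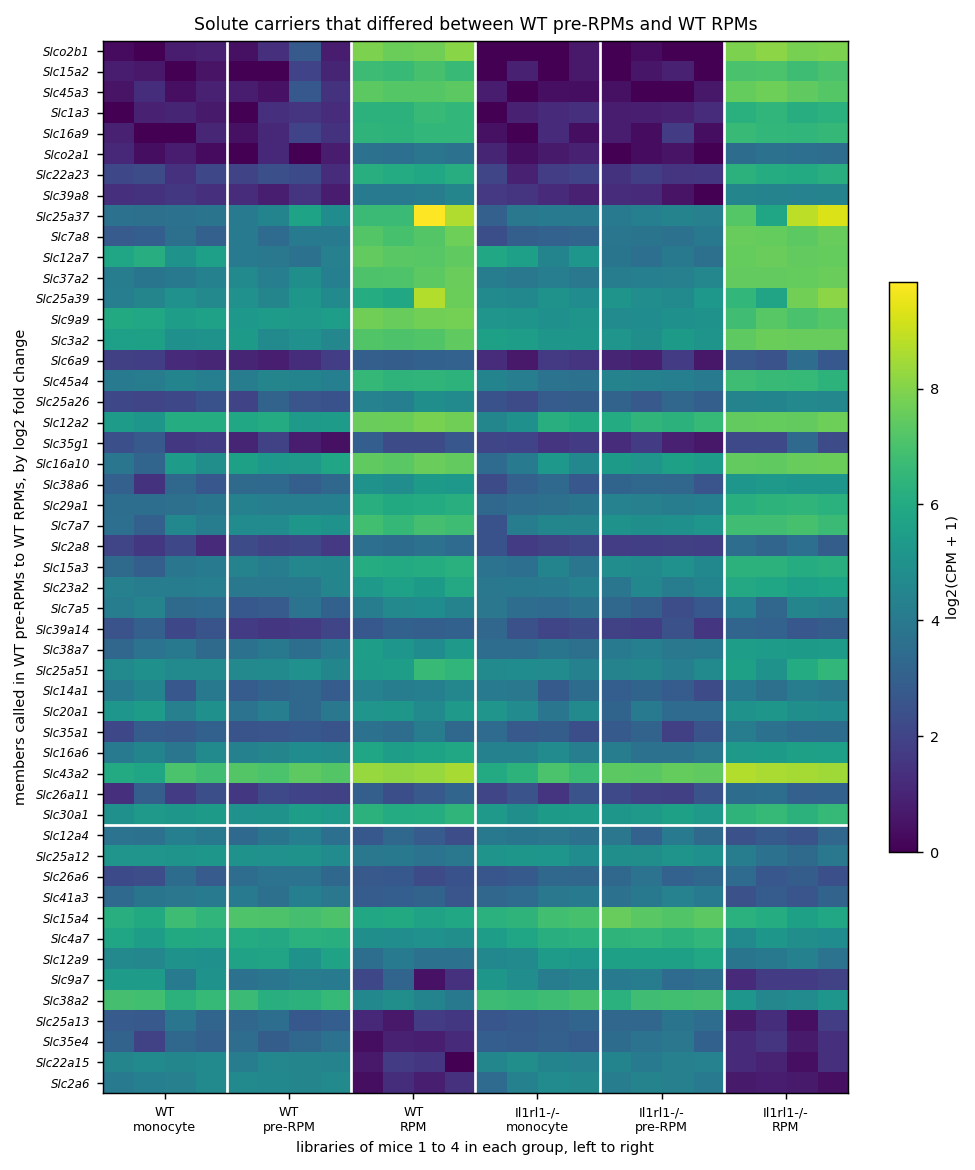
Level of 51 of the 52 members called between WT pre-RPMs and WT RPMs (rows, by fold change) in each of the 24 libraries (columns, mice 1 to 4 in each group), as log2(CPM + 1); the horizontal line separates the 38 members shown that were higher in RPMs from the 13 lower. Slco2b1 in the top row was at 196 to 272 CPM in WT RPMs and at 0 to 0.858 CPM in WT monocytes.

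Organic anion carriers held the member with the largest difference. Slco2b1 (GRCm38 chr7:99657804-99711340, minus strand), which takes up sulfated steroids, bile acids and many drugs, was at 0.343, 1.54, 5.82 and 0.699 CPM in the 4 WT pre-RPM libraries and at 235, 196, 207 and 272 CPM in the 4 WT RPM libraries (log2 fold change 6.75 ± 0.35, SE). The groups did not overlap. WT pre-RPM library 3, the highest of its group, also had the most RPM marker transcripts, with a sum of 533 CPM against 236 to 304 in the other 3 libraries and 62.2 CPM of the adhesion molecule Vcam1 against 3.43, 3.07 and 13.3. The same library was the highest of its group for Slc45a3, Slc15a2 and Slc16a9, and the part of this in their values was not tested. Without it the log2 fold changes were 8.0 for Slco2b1, 7.28 for Slc45a3 and 6.25 for Slc16a9. For Slc15a2 none is given, since each remaining WT pre-RPM library held 3 counts or fewer. Among libraries of the second genotype, Slco2b1 was at 0, 0.252, 0 and 0 CPM in pre-RPMs, which is 1 count in all, and at 237, 275, 225 and 238 CPM in RPMs. The prostaglandin transporter Slco2a1 reached a lower level, at 0, 1.15, 0 and 0.699 CPM in WT pre-RPMs and 12.1, 11.1, 13.5 and 11.6 CPM in WT RPMs. No fold is given where each library of the lower group held 3 counts or fewer, as here. Slc22a23, an organic ion transporter family member of uncertain substrate, was at 3.09, 4.22, 3.64 and 1.4 CPM in WT pre-RPMs and at 71.6, 64.9, 56.5 and 69.5 CPM in WT RPMs (log2 fold change 4.40 ± 0.21, SE). Its relative Slc22a15 went the opposite way, from 16.5, 22.6, 21.1 and 19.9 CPM to 0.606, 2.34, 1.92 and 0 CPM (log2 fold change -4.0 ± 0.4, SE). Thus 3 of 11 tested members of this class were higher in RPMs and 1 was lower, where 14.0% of all genes tested were called higher and 10.7% lower. Each of these called members reached 5 CPM in some groups only. The level rule itself therefore favored their calls and the gaps between their groups.

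Amino acid and peptide transporters formed the class with the most calls: of 27 tested, 13 were higher in WT RPMs and 2 lower, with a median change of 0.93 on the log2 scale. Over all genes tested, 14.0% were called higher and 10.7% lower. Their summed level ran from 805 to 1030 CPM in the 4 WT monocyte libraries, from 1100 to 1180 in WT pre-RPMs and from 1910 to 2170 in WT RPMs. The glutamate and aspartate transporter Slc1a3 was nearly absent from WT pre-RPMs, at 0, 1.54, 1.82 and 1.4 CPM, and reached 78.2, 79.2, 98.9 and 91.4 CPM in WT RPMs (log2 fold change 6.15 ± 0.28, SE). Slc15a2 (chr16:36750177-36784962, minus strand), a proton-coupled importer of di- and tripeptides, was at 0, 0, 2.91 and 1.05 CPM in WT pre-RPMs and at 105, 100, 124 and 98 CPM in WT RPMs (log2 fold change 6.68 ± 0.35, SE). Neither gene's groups overlapped, and in WT monocytes both stayed at or below 1 CPM in every library. Both genes reached 5 CPM in RPMs only, so that the level rule itself favored these gaps. The neutral and aromatic amino acid transporter Slc16a10 was at 47, 36.5, 38.6 and 54.9 CPM in WT pre-RPMs and at 172, 157, 191 and 176 CPM in WT RPMs (log2 fold change 1.96 ± 0.14, SE; edgeR adjusted p = 2.88e-08). Slc43a2, a carrier of branched-chain amino acids and phenylalanine, was at 322, 295, 322 and 369 CPM in WT RPMs against 147, 132, 166 and 146 in WT pre-RPMs (log2 fold change 1.14 ± 0.12, SE; edgeR adjusted p = 1.5e-06). The glycine transporter Slc6a9 was at 6.43–7.61 CPM in WT RPMs, a low level next to the class.

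The heavy chain Slc3a2 (chr19:8706882-8723369, minus strand) and 3 of the 4 light chains measured with it were higher in RPMs. Slc3a2 was at 40.2, 24.6, 30.6 and 22.7 CPM in WT pre-RPMs and at 143, 136, 142 and 171 CPM in WT RPMs (log2 fold change 2.32 ± 0.16, SE; edgeR adjusted p = 2.84e-08). Per kilobase of exon the level rose from 8.36 ± 2.23 to 42.0 ± 4.46 CPM per kb (SD, n = 4). Among the light chains, Slc7a7, which exports arginine and lysine in exchange for neutral amino acids, went from 8.94 ± 1.46 to 32.9 ± 3.61 CPM per kb. Slc7a8, a carrier of large and small neutral amino acids, went from 2.78 ± 0.528 to 31.1 ± 6.53 CPM per kb. Both thus reached similar levels in RPMs, from unequal levels in pre-RPMs. Slc7a5, the light chain of dividing and activated cells, stayed lower in RPMs at 5.87 ± 1.25 CPM per kb, after 2.11 ± 0.841 in pre-RPMs. Slc7a6 was at 1.77 ± 0.175 CPM per kb in pre-RPMs and 0.935 ± 0.372 in RPMs and was not called. In edgeR's fit the log2 fold changes were 1.87 ± 0.13 for Slc7a7 (adjusted p = 3.62e-08), 3.46 ± 0.18 for Slc7a8 (adjusted p = 1.46e-09) and 1.46 ± 0.25 for Slc7a5 (adjusted p = 0.000216).

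**Figure D2:**
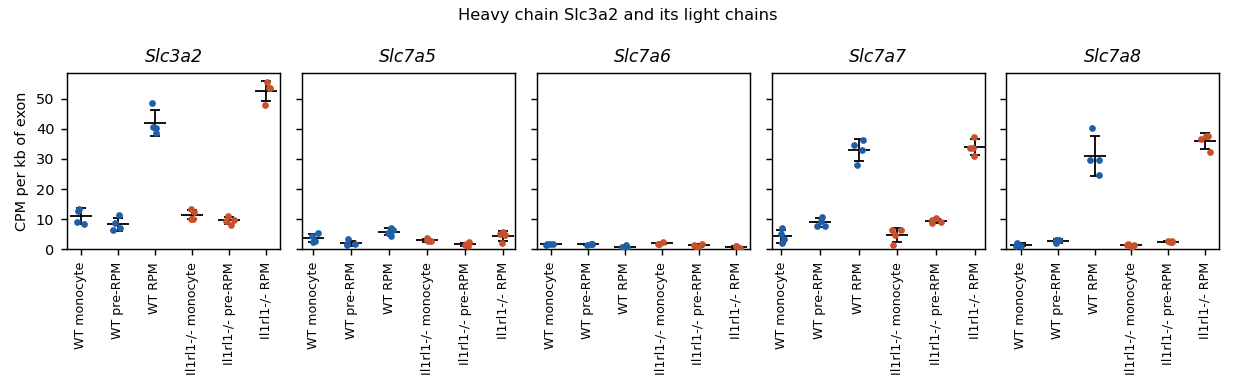
CPM per kilobase of exon of the heavy chain Slc3a2 and 4 light chains in each library (points; blue WT, orange labelled Il1rl1-/-), with the mean and SD of the 4 libraries of a group as bars. Slc3a2, Slc7a7 and Slc7a8 reached means of 42.0, 32.9 and 31.1 CPM per kb in WT RPMs, whereas Slc7a5 and Slc7a6 stayed at 5.87 and 0.935.

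The sodium-coupled glutamine transporters of the Slc38 family ran the other way or in both directions. Slc38a2, which imports small neutral amino acids and is raised in many cells when these run short, was at 104, 73.7, 78.9 and 94.8 CPM in WT pre-RPMs and at 23.3, 28.1, 20.8 and 14.9 CPM in WT RPMs (log2 fold change -2.01 ± 0.17, SE; edgeR adjusted p = 2.49e-07). The groups did not overlap. Slc38a1, of the same function, was at 81.1–93.7 CPM in WT pre-RPMs and 38.8–56.4 CPM in WT RPMs, a change of -0.94 ± 0.13 (SE) on the log2 scale that did not reach the size of a call (edgeR adjusted p = 2.68e-05). The glutamine and alanine exchanger Slc1a5 was at 17.5–22.3 and 10.8–16.1 CPM (log2 fold change -0.62 ± 0.18, SE; edgeR adjusted p = 0.00982), again short of a call in WT. In contrast, Slc38a6 and the lysosomal glutamine exporter Slc38a7 were higher in RPMs, with log2 fold changes of 1.95 ± 0.18 (SE; edgeR adjusted p = 5.07e-07) and 1.44 ± 0.18 (SE; edgeR adjusted p = 1.2e-05). Members of a family could therefore move apart. In WT, 9 of the 33 families with 2 or more members had members called in both directions. These were Slc2, Slc9, Slc12, Slc15, Slc22, Slc25, Slc26, Slc35 and Slc38. In the libraries labelled Il1rl1-/- the count was also 9, with Slc1 in place of Slc26. Some of these calls were of members that reached 5 CPM in some groups only, which the level rule favored.

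**Figure D3:**
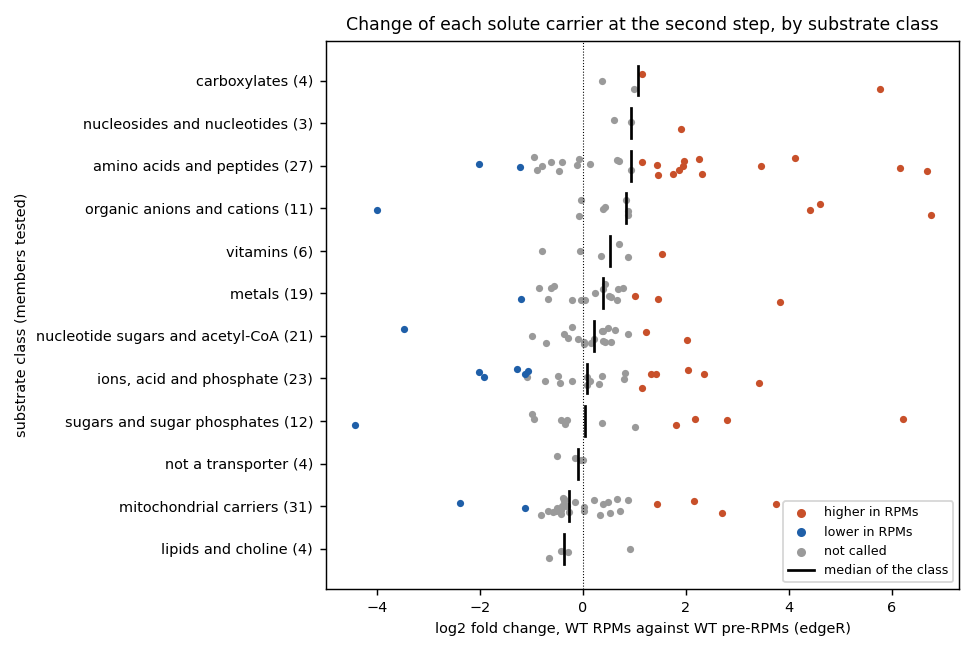
Log2 fold change of each tested member between WT pre-RPMs and WT RPMs (x axis, edgeR), by substrate class (rows, with the number tested); orange points were called higher, blue points called lower, grey points not called, and vertical bars mark class medians. Amino acid and peptide transporters held 13 of the 39 rises, and the mitochondrial carriers had a median of -0.26.

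Lysosomal carriers split in the same manner. Of 12 members with a lysosomal location fixed as a list, 4 were called higher in WT RPMs (Slc15a3, Slc38a7, Slc2a8 and Slc26a11) and 2 lower (Slc15a4 and Slc2a6), with a median change of 0.79 on the log2 scale. Over all genes tested, 14.0% were called higher and 10.7% lower. Slc2a8, Slc26a11 and Slc2a6 reached 5 CPM in some groups only, so that the level rule itself favored their calls. Slc26a11 lost its call in most fits that left out a library. The histidine and peptide exporters Slc15a3 and Slc15a4, which share substrates, moved in opposite directions. Slc15a3 was at 19.9, 16.9, 22.2 and 22 CPM in WT pre-RPMs and at 66.7, 64.3, 66.5 and 74.5 CPM in WT RPMs (log2 fold change 1.74 ± 0.12, SE; edgeR adjusted p = 2.73e-08). Slc15a4 was at 140, 137, 120 and 135 CPM and then at 59.4, 61.1, 50.4 and 58.9 CPM (log2 fold change -1.22 ± 0.11, SE; edgeR adjusted p = 3.48e-07). Neither gene's groups overlapped. A pair of the glucose transporter family also moved apart. Slc2a6 (chr2:27021363-27027998, minus strand), which sits on lysosomes, was at 24.7, 23, 21.5 and 24.5 CPM in WT pre-RPMs and at 0.303, 1.46, 0.769 and 1.66 CPM in WT RPMs (log2 fold change -4.43 ± 0.29, SE), whereas Slc2a8 went from 2.1–3.78 to 9.93–11.9 CPM. The arginine sensor and transporter Slc38a9 was at 33–59.1 and 32.3–44.4 CPM (log2 fold change -0.07 ± 0.18, SE; edgeR adjusted p = 0.768). The proton-coupled amino acid exporter Slc36a1 changed by 0.70 ± 0.12 (SE; edgeR adjusted p = 0.000292) and the nucleoside exporter Slc29a3 by 0.94 ± 0.13 (SE; edgeR adjusted p = 3.6e-05), both upward but under the size of a call. The sialic acid exporter Slc17a5 changed by 0.88 ± 0.19 (SE; edgeR adjusted p = 0.00167) and Slc46a3 by -0.80 ± 0.14 (SE; edgeR adjusted p = 0.000227).

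Among sugar and sugar phosphate transporters, 4 of 12 were higher in WT RPMs and 1, Slc2a6, lower, with a median change of 0.03 on the log2 scale. Over all genes tested, 14.0% were called higher and 10.7% lower. Slc45a3, Slc2a8 and Slc2a6 reached 5 CPM in some groups only, so that the level rule itself favored their calls and gaps. Slc45a3, a proton-coupled sugar transporter family member, was at 0.687, 0.384, 5.46 and 1.75 CPM in WT pre-RPMs and at 162, 152, 152 and 163 CPM in WT RPMs (log2 fold change 6.21 ± 0.31, SE). Slc37a2, an exchanger of glucose phosphate and phosphate at the endoplasmic reticulum, was at 25.4, 17.3, 28.7 and 18.2 CPM and then at 135, 139, 165 and 191 CPM (log2 fold change 2.80 ± 0.17, SE; edgeR adjusted p = 7.99e-09). Slc45a4 changed by 2.17 ± 0.12 (SE; edgeR adjusted p = 2.5e-09), from 16.5–21.1 to 81.4–92.2 CPM. The RPM libraries lay above all pre-RPM libraries for the 3 genes. Monocarboxylate carriers were few. Slc16a9, a carrier of carnitine and creatine, was at 0.343, 1.15, 2.91 and 1.75 CPM in WT pre-RPMs and at 83.4, 81.8, 90 and 90.1 CPM in WT RPMs (log2 fold change 5.77 ± 0.24, SE). The ketone body carrier Slc16a6 rose from 19.2–26.9 to 44.4–57.6 CPM (log2 fold change 1.15 ± 0.14, SE; edgeR adjusted p = 6.67e-06). The lactate and pyruvate carrier Slc16a7 went from 25.8–32.2 to 46.5–70.4 CPM, a change of 1.00 ± 0.14 (SE; edgeR adjusted p = 3.58e-05) that lay at the edge of a call and was not called.

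Ion transporters were called almost equally in both directions, with 6 higher and 5 lower of 23 tested. Over all genes tested, 14.0% were called higher and 10.7% lower. Slc9a7, Slc26a6 and Slc26a11 reached 5 CPM in some groups only, which the level rule favored. The chloride cotransporters moved apart within their family. Slc12a7 (chr13:73733094-73816754, plus strand), which exports potassium with chloride, was at 16.1, 14.2, 12 and 18.5 CPM in WT pre-RPMs and at 176, 159, 155 and 170 CPM in WT RPMs (log2 fold change 3.42 ± 0.14, SE; edgeR adjusted p = 1.94e-10). The sodium, potassium and chloride importer Slc12a2 rose from 57.3, 64.5, 37.5 and 40.9 CPM to 194, 196, 233 and 206 CPM (log2 fold change 2.04 ± 0.17, SE; edgeR adjusted p = 1.49e-07). Both exceeded every pre-RPM library by a wide margin. Slc12a9, a relative without a settled substrate, fell from 32.4–53.3 to 10.6–15.5 CPM (log2 fold change -1.91 ± 0.19, SE; edgeR adjusted p = 1.01e-06). The fall of Slc12a4 (log2 fold change -1.06 ± 0.28, SE; edgeR adjusted p = 0.00617) kept its call in 3 of 8 fits that left out a library, and the higher level of the sulfate transporter Slc26a11 in RPMs kept its call in 1 of 8. The sodium and proton exchangers of organelles also parted: the endosomal Slc9a9 (chr9:94669909-95230445, plus strand) rose from 37.4, 41.4, 39.3 and 43 CPM to 208, 187, 213 and 220 CPM (log2 fold change 2.35 ± 0.11, SE; edgeR adjusted p = 5.91e-10), and the Golgi exchanger Slc9a7 was at 12, 13.4, 17.1 and 15.4 CPM in WT pre-RPMs and at 3.33, 8.18, 0.385 and 1.66 CPM in WT RPMs (log2 fold change -2.01 ± 0.44, SE). The bicarbonate transporter Slc4a7 fell from 60.3–76.4 to 27.2–30.4 CPM (log2 fold change -1.27 ± 0.11, SE; edgeR adjusted p = 2.96e-07), whereas the phosphate importer Slc20a1 rose from 8.73–17.3 to 25–38.1 CPM (log2 fold change 1.33 ± 0.20, SE; edgeR adjusted p = 6.79e-05) and the urea transporter Slc14a1 from 6.18–8.73 to 17.2–22.5 CPM (log2 fold change 1.42 ± 0.19, SE; edgeR adjusted p = 2.37e-05).

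Of 19 metal transporters tested, 3 were higher in WT RPMs and 1 lower, where 14.0% of all genes tested were called higher and 10.7% lower. The zinc, manganese and iron importer Slc39a8 was at 1.37, 0.768, 1.82 and 0.699 CPM in WT pre-RPMs and at 15.8, 15.2, 16.5 and 21.5 CPM in WT RPMs (log2 fold change 3.83 ± 0.30, SE). Its close relative Slc39a14 was at 1.92–3.15 and 5.46–7.31 CPM (log2 fold change 1.45 ± 0.28, SE). The groups did not overlap for either gene. Both genes reached 5 CPM in some groups only, so that the level rule itself favored their calls and gaps. The zinc exporter Slc30a1 was at 30.6, 31.9, 44.4 and 38.5 CPM and then at 78.5, 66, 66.9 and 84.8 CPM (log2 fold change 1.02 ± 0.13, SE; edgeR adjusted p = 2e-05), and it kept its call in 4 of 8 fits that left out a library, and without RPM library 1 or 4 or pre-RPM library 1 or 2 the change lay between 0.94 and 1.0. The magnesium carrier family was represented by Slc41a3, which fell from 11.5–17.8 to 4.97–7.69 CPM (log2 fold change -1.21 ± 0.21, SE; edgeR adjusted p = 0.000297), and by Slc41a1, at 13.8–16.1 and 9.62–19 CPM, which was not called. The copper importer Slc31a1 was at 13.4–16.8 and 7.69–9.06 CPM (log2 fold change -0.85 ± 0.18, SE; edgeR adjusted p = 0.00128), and the zinc importer Slc39a1 at 22–30.9 and 36.5–50.3 CPM (log2 fold change 0.77 ± 0.14, SE; edgeR adjusted p = 0.00045), both short of a call.

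Of 31 mitochondrial carriers tested in WT, 4 were higher in RPMs and 2 lower, where 24.7% of all genes were called, and the median change was -0.26 on the log2 scale. Their summed level was 868 ± 32.3 CPM in WT pre-RPMs and 1350 ± 610 in WT RPMs (SD, n = 4), but 811 ± 21.3 and 780 ± 62.0 without Slc25a37 and Slc25a39. Slc25a37 (chr14:69241848-69285112, minus strand), which imports iron into the mitochondria of red cell precursors, was at 15.8, 20.7, 50.6 and 26.9 CPM in WT pre-RPMs and at 103, 103, 914 and 408 CPM in WT RPMs (log2 fold change 3.74 ± 0.65, SE; edgeR adjusted p = 0.000235). Slc25a39, a carrier of glutathione into mitochondria, was at 30.2, 21.5, 36 and 25.2 CPM and then at 67.6, 58.4, 419 and 197 CPM (log2 fold change 2.70 ± 0.52, SE; edgeR adjusted p = 0.000594). Both genes were highest in WT RPM library 3 and next highest in library 4. The summed CPM of the 6 erythroid markers was 2320, 1580, 30100 and 12200 in the same libraries, where every marker of the list was detected, and WT pre-RPM library 3, the highest of its group for both carriers, had a sum of 648 against 13.7 to 119 in the other 3. The part of red cell transcripts in these changes was not tested, and without WT RPM library 3 the log2 fold change was 2.83 for Slc25a37 and 1.91 for Slc25a39. Slc25a51, the carrier of NAD, was likewise higher in RPM libraries 3 and 4, at 102 and 88.1 CPM, than in libraries 1 and 2, at 40.9 and 43.8 CPM, with 21.7–30.6 CPM in WT pre-RPMs (log2 fold change 1.43 ± 0.27, SE; edgeR adjusted p = 0.000523).

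The S-adenosylmethionine carrier Slc25a26 was at 3.09, 7.68, 5.09 and 4.55 CPM in WT pre-RPMs and at 19.4, 18.1, 28.5 and 25.2 CPM in WT RPMs (log2 fold change 2.15 ± 0.26, SE). The aspartate and glutamate carriers, which feed the malate-aspartate shuttle, were both lower in RPMs. Slc25a13 was at 8.58, 10.7, 5.46 and 6.64 CPM and then at 1.21, 0.584, 2.31 and 1.99 CPM (log2 fold change -2.39 ± 0.38, SE). Slc25a26 and Slc25a13 were, like the erythroid markers, at their 2 highest RPM values in libraries 3 and 4. Slc25a12 fell from 25.9–32.6 to 12.3–14.9 CPM (log2 fold change -1.12 ± 0.14, SE; edgeR adjusted p = 1.38e-05). No RPM library overlapped the pre-RPM range for Slc25a12 or Slc25a13. Slc25a13 and Slc25a26 reached 5 CPM in some groups only, which the level rule favored. The iron importer of non-erythroid cells, Slc25a28, was at 32.6–44 CPM in WT pre-RPMs and 24.5–35.5 CPM in WT RPMs (log2 fold change -0.43 ± 0.14, SE; edgeR adjusted p = 0.023), and the glycine carrier of heme synthesis, Slc25a38, at 11.5–16.5 and 8.46–16.9 CPM (log2 fold change 0.03 ± 0.22, SE; edgeR adjusted p = 0.922). The ADP/ATP carriers differed by -0.43 ± 0.13 for Slc25a5 (SE; edgeR adjusted p = 0.0127) and 0.73 ± 0.13 for Slc25a4 (SE; edgeR adjusted p = 0.000375), and neither was called. The phosphate carrier Slc25a3 changed by -0.36 ± 0.17 (SE; edgeR adjusted p = 0.0925).

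The nucleoside transporter Slc29a1 rose from 18.9, 17.3, 17.5 and 17.8 CPM in WT pre-RPMs to 72.5, 61.7, 64.6 and 72.8 CPM in WT RPMs (log2 fold change 1.91 ± 0.12, SE; edgeR adjusted p = 7.99e-09), and the vitamin C transporter Slc23a2 from 14.4, 14.2, 14.6 and 21 CPM to 38.8, 48.2, 40 and 60.3 CPM (log2 fold change 1.53 ± 0.18, SE; edgeR adjusted p = 6.17e-06). In both cases the lowest RPM library exceeded the highest pre-RPM library. Among 21 nucleotide sugar and acetyl-CoA transporters, the CMP-sialic acid transporter Slc35a1 and Slc35g1 were higher in WT RPMs and Slc35e4 was lower, with a log2 fold change of -3.47 ± 0.38 (SE) from 6.52–11.9 to 0.303–1.32 CPM. Over all genes tested, 14.0% were called higher and 10.7% lower. Slc35a1, Slc35g1 and Slc35e4 reached 5 CPM in some groups only, which the level rule favored. The 4 lipid and choline transporters held 0 calls: the choline transporters Slc44a2 and Slc44a1 changed by -0.43 ± 0.10 (SE; edgeR adjusted p = 0.00262) and -0.66 ± 0.22 (SE; edgeR adjusted p = 0.0236), and the fatty acid transporter Slc27a4 by -0.29 ± 0.20 (SE; edgeR adjusted p = 0.251). Slc27a1, of the same family, differed by 0.91 ± 0.34 on the log2 scale (SE). The reduced folate carrier Slc19a1 was at 2.45–4.46 and 3.64–7.69 CPM and was not called in WT. In all, 8 of the 173 members were too low in this comparison to be tested: Slco4c1, Slc19a2, Slc28a2, Slc13a3, Slco3a1, Slc41a2, Slc9a5 and Slc25a23.

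Promoter sequence is shown for 4 members. These are Slco2b1 and Slc15a2, with the largest log2 fold changes, the light chain Slc7a7, and Slc25a13, the mitochondrial carrier with the largest fall. The windows are RefSeq promoter sequences on GRCm38.p6, a C57BL/6J reference, whereas the mice were Balb/c, and reads were not used to check them. A window of 250 bases before to 50 after a gene's start was found within 500 bases of the annotated start for 117 of the 173 members and for 16736 genes of the files. Each stretch below is 120 bases, 5′ to 3′ on the gene's own minus strand. The first is chr7:99711321-99711440 (from 100 bases before the start to base 20 of the transcript), the second chr16:36784998-36785117 (155 to 36 bases before), the third chr14:54417833-54417952 (250 to 131 before) and the fourth chr6:6217239-6217358 (185 to 66 before). Capitals mark matches to 5 motifs searched on both strands. Each window shown held a match, whereas those of Slc2a6, Slc45a3, Slc1a3 and Slc16a9, which changed more than Slc25a13 did, held none.
Slco2b1: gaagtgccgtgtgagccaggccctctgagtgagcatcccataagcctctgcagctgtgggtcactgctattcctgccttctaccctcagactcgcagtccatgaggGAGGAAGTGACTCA
Slc15a2: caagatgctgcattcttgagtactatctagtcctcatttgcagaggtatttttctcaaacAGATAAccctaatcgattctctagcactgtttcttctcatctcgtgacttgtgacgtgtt
Slc7a7: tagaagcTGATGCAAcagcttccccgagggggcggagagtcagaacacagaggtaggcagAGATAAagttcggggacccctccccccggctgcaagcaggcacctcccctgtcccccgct
Slc25a13: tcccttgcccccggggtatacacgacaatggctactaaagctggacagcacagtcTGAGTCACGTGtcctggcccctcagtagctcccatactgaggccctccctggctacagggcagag
The motifs were the E-box CACGTG bound by helix-loop-helix factors such as TFEB and TFE3, the ETS box GAGGAAGT of macrophage factors such as PU.1 and SPI-C, the AP-1 element TGACTCA, the GATA box AGATAA, and the amino acid response element TGATGNAA of ATF4. In the Slco2b1 window the ETS box and the AP-1 element share 1 base, and in the Slc25a13 window the AP-1 element, read on the other strand, overlaps the E-box. The Slc15a2 stretch holds 1 GATA box and the Slc7a7 stretch 1 response element and 1 GATA box. Of all 16736 windows, 8.28% held the E-box, 3.38% the ETS box, 4.79% the AP-1 element, 9.09% the GATA box and 3.29% the response element. Of the 117 member windows the shares were 13.7%, 4.27%, 4.27%, 7.69% and 3.42%. Among the 23 windows of members higher in WT RPMs they were 8.7%, 4.35%, 8.7%, 8.7% and 8.7%, which is 1 or 2 genes each. Among the 9 windows of members lower in WT RPMs, 2 held the E-box (Slc12a9 and Slc25a13), 2 the ETS box (Slc12a4 and Slc22a15) and 1 the AP-1 element (Slc25a13). A match is a run of letters and not a bound site, and a window without one says nothing of a factor.

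Genes that work with solute carriers were read from lists fixed with the members. Of 14 partner subunits and genes of ion gradients tested in WT, 1 was higher in RPMs, the lysosomal cation channel Tpcn2 (log2 fold change 2.23 ± 0.22, SE; edgeR adjusted p = 8.76e-07), and 2 were lower. The partners of the monocarboxylate carriers parted. Emb, encoding embigin, was at means of 107 CPM in WT monocytes, 167 in WT pre-RPMs and 6.92 in WT RPMs (log2 fold change -4.55 ± 0.23 from pre-RPMs to RPMs, SE; edgeR adjusted p = 9.87e-10), whereas Bsg, encoding basigin, was at 54.3 and 96.6 CPM in WT pre-RPMs and RPMs (log2 fold change 0.82 ± 0.15, SE; edgeR adjusted p = 0.000488) and was not called. The sodium pump beta subunit Atp1b1 fell from 10.8 to 4.46 CPM (log2 fold change -1.25 ± 0.31, SE; edgeR adjusted p = 0.00421). Of 15 tested genes that sense amino acids at the lysosome, 1 was higher, the GTPase gene Rragd (log2 fold change 1.31 ± 0.23, SE; edgeR adjusted p = 0.000322). Of 12 mitochondrial transport partners, the serine transporter Sfxn1 was higher and Sfxn3 and Tspo were lower.

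The comparison of monocytes with pre-RPMs addressed the earlier step. In WT, 0 members were higher and 2 lower in pre-RPMs among 156 tested (edgeR), or 1.28%, while 3.57% of all genes tested were called, 0.316% higher and 3.25% lower. With an unadjusted p under 0.05 there were 53 members, where 31.9% of all genes had one, and 34 members had groups apart, against 20.8% of all genes. DESeq2 called 7 members, 1 higher and 6 lower. With the mouse number, which links the cell types of a mouse, fitted as a block there were 5 calls, 1 higher and 4 lower. Slc12a7 was at 54.6, 69, 31.1 and 45.7 CPM in WT monocytes and at 16.1, 14.2, 12 and 18.5 CPM in WT pre-RPMs (log2 fold change -1.75 ± 0.24, SE; edgeR adjusted p = 0.00111). It thus was intermediate in monocytes, lowest in pre-RPMs and highest in RPMs. The magnesium carrier Slc41a2 (chr10:83230848-83337882, minus strand) was at 15.6, 16.3, 3.34 and 10.5 CPM in WT monocytes, at 1.46–2.06 CPM in WT pre-RPMs and at 0.385–3.51 CPM in WT RPMs, and its monocyte to pre-RPM change was -2.69 ± 0.48 (SE). It lost its call without monocyte library 1 or any 1 of the 4 pre-RPM libraries, so that 1 called member was left in these 5 fits.

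Among WT monocytes, both members were lowest in library 3, which had the fewest NK cell transcripts. The summed CPM of the 6 NK markers was 2150, 2500, 763 and 1380 in WT monocyte libraries 1 to 4 and 93.4–190 in WT pre-RPMs. Slc20a1 had the same order, at 34.5, 41.2, 18.7 and 29.4 CPM in WT monocytes against 8.73–17.3 in WT pre-RPMs (log2 fold change -1.27 ± 0.26, SE; edgeR adjusted p = 0.0105). Slc9a7 was at 41.9, 41.2, 15.7 and 32.4 CPM against 12–17.1 (log2 fold change -1.22 ± 0.27, SE). Neither was called. In the monocytes labelled Il1rl1-/- the NK sums were 2050, 1530, 672 and 1070 CPM, and Slc41a2 was at 14.3, 12.5, 5.59 and 6.24 CPM and Slc12a7 at 56.7, 46.4, 20.8 and 34.8 CPM. The monocyte gate also carried neutrophil markers, with a sum of 398–1120 CPM in WT monocytes and 160–257 in WT pre-RPMs, and plasma cell markers, at 729–961 and 315–400 CPM. The part of these cells in the differences was not tested. Without WT monocyte library 3 the count of called members was 13, with 5 higher and 8 lower in pre-RPMs, against 2 with it.

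**Figure D4:**
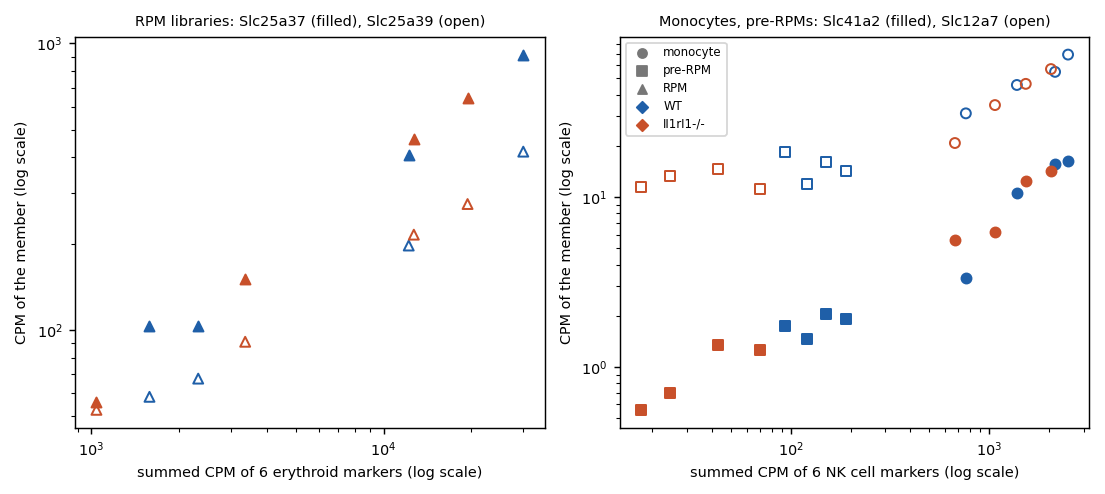
Left, CPM of Slc25a37 (filled) and Slc25a39 (open) against the summed CPM of 6 erythroid markers in the 8 RPM libraries; right, CPM of Slc41a2 (filled) and Slc12a7 (open) against the summed CPM of 6 NK cell markers in the 16 monocyte and pre-RPM libraries. All axes are logarithmic, and blue is WT and orange labelled Il1rl1-/-. Slc25a37 ran from 56.1 CPM at an erythroid sum of 1040 to 914 CPM at a sum of 30100.

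In the libraries labelled Il1rl1-/-, which share no sample with the WT comparison, 48 members were higher and 14 lower in RPMs than in pre-RPMs among 166 tested (edgeR), or 37.3%, against 26.0% of all genes (14.5% higher and 11.5% lower). Groups apart were found for 98 members and 49.3% of all genes, and an unadjusted p under 0.05 for 115 members and 58.8% of all genes. Among the 127 members at 5 CPM in every group the count was 27 higher and 9 lower, or 28.3%. The calls of both genotypes had 50 members in common in the same direction, which is 96.2% of the 52 in WT and 80.6% of the 62 in the other genotype. Of the members called in one genotype alone, Slc12a4 and Slc26a6 were called in WT, and 12 in the other genotype, among them Slc1a5, Slc44a1, Slc35c1, Slc35b2 and Slc16a7. A call in one genotype alone does not show a difference between them, for which the interaction tests stand with the genotypes. Slc3a2 was at 34.3, 28.7, 39.6 and 33.5 CPM in these pre-RPMs and at 169, 196, 189 and 189 CPM in the RPMs (log2 fold change 2.45 ± 0.11, SE; edgeR adjusted p = 3.37e-11). Slc7a8 changed by 3.75 ± 0.11 (SE; edgeR adjusted p = 5.6e-13) and Slc12a7 by 3.86 ± 0.11 (SE; edgeR adjusted p = 3.95e-13). Slc38a2 fell from 76.3, 113, 115 and 120 CPM to 34.5, 22.8, 25.8 and 34.5 CPM (log2 fold change -1.87 ± 0.16, SE; edgeR adjusted p = 9.42e-08).

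Slc15a2 was at 0, 0.504, 0.891 and 0 CPM in these pre-RPMs and at 129, 132, 110 and 127 CPM in RPMs, and Slc45a3 at 0.35, 0, 0 and 0.558 CPM and at 182, 201, 170 and 149 CPM. For both, no pre-RPM library held more than 3 counts. The erythroid carriers again spread between RPM libraries, with Slc25a37 at 150, 56.1, 465 and 644 CPM and Slc25a39 at 90.9, 52.6, 215 and 275 CPM, where the erythroid markers summed to 3360, 1040, 12700 and 19400 CPM. The order of the 4 libraries was the same for the 3 measures. In the earlier step, 0 members were higher and 2 lower among 156 tested, or 1.28% against 4.85% of all genes (0.974% higher and 3.88% lower), and the 2 were again Slc12a7 (log2 fold change -1.72 ± 0.28, SE; edgeR adjusted p = 0.0016) and Slc41a2 (log2 fold change -3.34 ± 0.46, SE). With an unadjusted p under 0.05 there were 48 members, where 30.6% of all genes had one, and 38 members had groups apart, against 23.1% of all genes. DESeq2 called 4, and a block for the mouse gave 3. Without monocyte library 3, the lowest in NK markers, the count was 10, with 5 in each direction.

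The comparison of genotypes within a cell type asked whether loss of the receptor altered the transporters. In monocytes, 0 of 160 members tested were called (edgeR adjusted p under 0.05) against 0.0614% of all genes (0.0438% higher and 0.0175% lower), with 8 members and 3.59% of all genes at an unadjusted p under 0.05. In pre-RPMs, 0 of 148 were called against 0.552% of all genes (0.168% higher and 0.383% lower), with 17 members and 8.8% of all genes at an unadjusted p under 0.05. In RPMs, 1 of 161 was called against 0.233% of all genes (0.152% higher and 0.0807% lower), with 17 members and 7.27% of all genes at an unadjusted p under 0.05. DESeq2 called 1, 1 and 2 members. The member called in RPMs was the glutamine transporter Slc38a1 (chr15:96571418-96642913, minus strand). It was at 38.8, 56.4, 39.2 and 45.7 CPM in WT RPMs and at 88.7, 90.9, 75.9 and 87.1 CPM in RPMs labelled Il1rl1-/- (log2 fold change 0.91 ± 0.13, SE; edgeR adjusted p = 0.00501). The groups did not overlap, and the call held in 8 of 8 fits that left out a library. In monocytes the values were 88.2, 76.8, 97.7 and 94.8 CPM in WT and 87.1, 77.7, 94.7 and 91.5 CPM in the other genotype, and in pre-RPMs 81.1–93.7 and 82.6–112 CPM. The WT RPM libraries were thus the low ones among all 24. The test of whether the pre-RPM to RPM change of Slc38a1 differed between genotypes gave a difference of 0.78 ± 0.17 on the log2 scale (SE; edgeR adjusted p = 0.0984), short of the threshold.

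Slc9a9, the endosomal sodium and proton exchanger, had lower values in the libraries labelled Il1rl1-/- in each cell type, without reaching the threshold in edgeR's fit of each cell type alone. In monocytes it was at 61.9, 57.3, 43.5 and 47.9 CPM in WT and at 33.9, 32.7, 29.8 and 33 CPM (log2 fold change -0.69 ± 0.13, SE; edgeR adjusted p = 0.311). In pre-RPMs it was at 37.4, 41.4, 39.3 and 43 CPM in WT and at 25.9, 26.7, 29.8 and 32.1 CPM (log2 fold change -0.51 ± 0.12, SE; edgeR adjusted p = 0.0714). In RPMs it was at 208, 187, 213 and 220 CPM in WT and at 111, 155, 128 and 150 CPM (log2 fold change -0.62 ± 0.12, SE; edgeR adjusted p = 0.0569). The groups did not overlap in any of the 3 cell types, where 2.39%, 5.09% and 4.39% of all genes had groups apart, and 3, 17 and 9 members did. In edgeR's fit of all 24 libraries the adjusted p was 0.00821 for monocytes, 0.0103 for RPMs and 0.164 for pre-RPMs. With the replicate number as a block it was 0.0515 in monocytes, 0.00805 in RPMs and 0.033 in pre-RPMs, and the count of members called in RPMs was 2. Between genotypes that number marks different mice. DESeq2 gave adjusted p-values of 0.0499 for monocytes, 0.000255 for RPMs and 0.193 for pre-RPMs. The same animals supplied the 3 cell types, so that the 3 differences are not separate evidence.

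In pre-RPMs 2 further members came close to the threshold. The ketone body carrier Slc16a6 was at 19.2, 21.5, 26.9 and 25.2 CPM in WT and at 16.8, 11.8, 12 and 14.2 CPM in the second genotype (log2 fold change -0.77 ± 0.17, SE; edgeR adjusted p = 0.0553). Slc12a2 was at 57.3, 64.5, 37.5 and 40.9 CPM in WT and at 65.5, 85.1, 78.4 and 95.4 CPM (log2 fold change 0.68 ± 0.16, SE; edgeR adjusted p = 0.0753). DESeq2 called Slc12a2 (adjusted p = 0.034) and not Slc16a6 (adjusted p = 0.0957), a block for the replicate number gave adjusted p-values of 0.0215 and 0.0426, and the fit of all 24 libraries gave 0.591 and 0.121. The genotypes did not overlap for either gene, and for Slc12a2 the highest WT and the lowest other library lay within 1 CPM. In the comparison of the earlier step between genotypes, 0 of 162 members were called against 0.0% of all genes, with 5 at an unadjusted p under 0.05 and 0 by DESeq2. In that of the later step, 0 of 169 were called against 0.107% (0.0658% higher and 0.0412% lower), with 11 at an unadjusted p under 0.05 and 3 by DESeq2 (Slco2b1, Slc38a1 and Slc12a2). The differences of that step were -0.85 ± 0.20 for Slc12a2 (SE; edgeR adjusted p = 0.18) and -0.96 ± 0.26 for Slc1a5 (SE; edgeR adjusted p = 0.219). Markers of other cells also differed in pre-RPMs: NK markers with 3 of 4 tested lower and sums of 17.6–69.7 CPM against 93.4–190 in WT, B cell markers with 2 of 5 lower, and basophil and mast cell markers with 1 of 2 lower, and their part in the pre-RPM values was not tested.

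**Figure D5:**
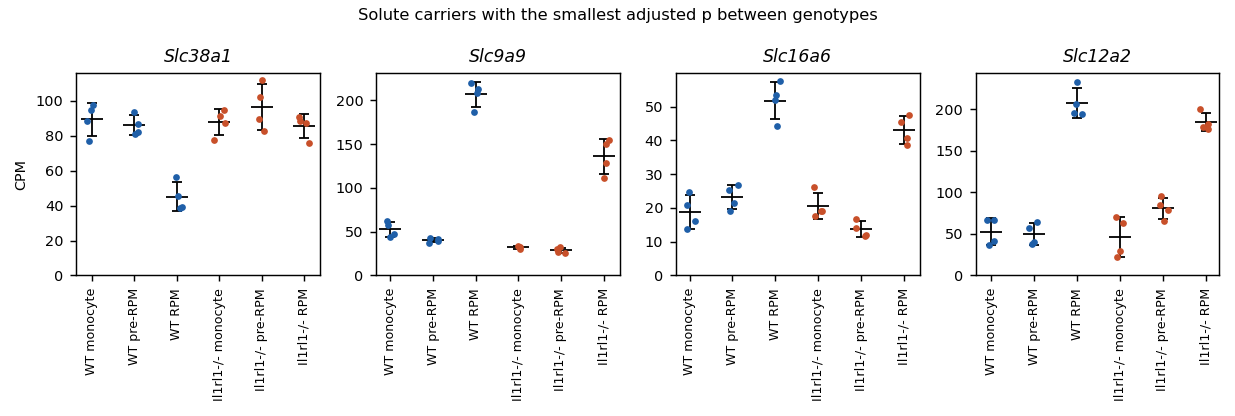
CPM of the 4 members with the smallest adjusted p between genotypes in each library (points; blue WT, orange labelled Il1rl1-/-), with the mean and SD of the 4 libraries of each group. Slc38a1 was at 38.8 to 56.4 CPM in WT RPMs and at 75.9 to 90.9 CPM in RPMs labelled Il1rl1-/-; Slc9a9 was lower in the second genotype in all 3 cell types.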

How the data were processed

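RNA from 24 sorted samples (6 groups of 4 mice, 1 library per sample) was analysed, and the other samples of the series were not analysed here. The deposited values were raw counts of read pairs per gene: per the file headers the authors counted with featureCounts 1.6.2, on the reverse strand, over exons of Ensembl GRCm38.95 by gene name, leaving out multi-mapped reads, after trimming with cutadapt and alignment with STAR 2.5.1. Reads of near-identical copies are therefore missing, and the ribosomal Gm42418 took part of each library. Libraries were grouped by the labels. Levels are CPM over the total without Gm42418, scaled with TMM factors (0.867 to 1.27); membership used unscaled CPM.

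Each comparison was fitted over all genes passing filterByExpr with edgeR 4.0.16 (TMM, quasi-likelihood F test, 4 against 4 libraries; 16 libraries for interactions) in R 4.3.3, with Benjamini-Hochberg adjustment over all genes tested; limma 3.58.1 was loaded with it. A call needed an adjusted p under 0.01 and a log2 change above 1 between cell types, and an adjusted p under 0.05 between genotypes. SE is the log2 fold change over the square root of F. With 4 libraries a group, intervals of single counts are not given. Members and gene lists (marker lists, 3 partner lists and 12 lysosomal members) were chosen with earlier results of these data known. Named members were the 12 largest rises and falls per WT step, those called between genotypes, the highest per kilobase of each class, and a list of 40 with known roles, in all 63, of which some are not reported here; others were named as complete sets (threshold neighbours, untested members, Slc7a6) or after their values were seen (Slc6a9, Slc12a4, Slc14a1, Slc16a10, Slc23a2, Slc25a26, Slc25a33, Slc25a39, Slc25a51, Slc35a1, Slc35b2, Slc35c1, Slc37a2, Slc38a6 and Slc45a4). A self-test used simulated counts of 10970 genes for the WT pre-RPM to RPM comparison. With an edgeR adjusted p under 0.05 and no fold limit, 73 of 106 genes changed 2-fold and 93 of 93 changed 4-fold were recovered. False calls made up 5.68%. The calls between cell types used stricter limits, for which recovery was not tested.

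Alternatives were DESeq2 1.42.0, RLE size factors, 2 filters, all 24 libraries in one fit, no Gm42418, a block for the mouse number, other cut-offs for membership, and leaving out each library. The number pairs libraries of one mouse across cell types, per the labels (correlation of deviations -0.035 to 0.31). Between genotypes it marks different mice, and deviations correlated by 0.12 to 0.455 in monocytes, 0.152 to 0.184 in RPMs and 0.046 to 0.155 in pre-RPMs. Tables and figures were made with Python 3.11.15, NumPy 2.4.6, pandas 2.3.3 and matplotlib 3.10.9.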

Additional observations from a re-analysis of the deposited data

Results flagged for a closer look

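Single libraries stood away from the other 3 of their group in 20 of 366 tests of a named member in a group (the gap to the nearest library over the whole range, above Dixon's limit for 4 values). Chance alone gives about 1 in 20. Each is given as its CPM, beside that of the nearest library, and the cause was not tested. In pre-RPMs labelled Il1rl1-/-, Slc12a9 was at 58 in library 4 (nearest 47.7), Slc16a7 was at 32.1 in library 4 (nearest 25.8), Slc19a1 was at 1.67 in library 4 (nearest 2.67), Slc1a5 was at 23.4 in library 2 (nearest 25.6), Slc25a5 was at 129 in library 4 (nearest 147), Slc30a1 was at 47.2 in library 3 (nearest 38), Slc35c2 was at 53.5 in library 3 (nearest 48.7), Slc38a2 was at 76.3 in library 1 (nearest 113), Slc46a3 was at 58.4 in library 3 (nearest 52.9) and Slco2b1 was at 0.252 in library 2 (nearest 0). In monocytes labelled Il1rl1-/-, Slc19a1 was at 3.27 in library 4 (nearest 2.17), Slc25a37 was at 7 in library 1 (nearest 14.3), Slc9a3r1 was at 114 in library 1 (nearest 83.2) and Slco2b1 was at 0.594 in library 4 (nearest 0). In WT RPMs, Slc25a5 was at 90 in library 2 (nearest 117). In WT monocytes, Slc27a4 was at 21.2 in library 2 (nearest 17.8). In WT pre-RPMs, Slc27a4 was at 9.44 in library 4 (nearest 16), Slc38a9 was at 59.1 in library 4 (nearest 36.8) and Slc7a8 was at 9.98 in library 2 (nearest 15). In RPMs labelled Il1rl1-/-, Slc2a6 was at 0.308 in library 4 (nearest 0.638). Of these, 10 were in pre-RPMs labelled Il1rl1-/-. For Slco2b1 these libraries held 1 and 2 counts.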

How the results depend on the processing

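Among the 63 named members, no change that was called in the reported fit or under an alternative reversed its sign. Changes that were not called did: between genotypes in RPMs, Slc25a37 (-0.22) ran from -0.78 to 0.68 when a library was left out. The count of members called from WT monocytes to pre-RPMs (2) was 1 among genes with 10 counts in every library, 7 with DESeq2, 5 with all 24 libraries in one fit, 11 over every gene with a count, 5 with the mouse number as a replicate block and 1 to 13 when a library was left out, 13 being without WT monocyte library 3. In the same step labelled Il1rl1-/- (2, both lower) these were 1, 4, 4, 4, 3 and 2 to 10, with 5 higher and 5 lower of 10 without monocyte library 3. The later step gave 33 under the 10-count filter and 51 to 58 without a library in WT (52), and 39 and 60 to 64 in the other genotype (62); fewer members were tested under that filter (133). Between genotypes, monocytes (0) gave 1 with DESeq2, 1 with all libraries, 1 over every gene and 0 without a library; pre-RPMs (0) gave 1 with DESeq2, 5 over every gene, 3 with the block (Slc16a6, Slc9a9 and Slc12a2) and 0 to 1 without a library; RPMs (1) gave 2, 2, 4, 2 and 1. Between genotypes in pre-RPMs the number marks different mice, whose deviations correlated by 0.046 to 0.155. Each WT pre-RPM library correlated best with the other genotype's library of its own number. The interaction of the earlier step (0) gave 1 over every gene and 0 without a library, and that of the later step (0) gave 3 with DESeq2, 4 over every gene and 0 to 1 without a library. Where no construction is named, the cause was not tested. The block moved no other count of calls by over 1.5 times. RLE factors and the removal of Gm42418 moved no count by over 1.5 times. The set held 139 members at a cut-off of 10 CPM, 202 at 2 CPM, 169 with TMM-scaled CPM and 158 with Gm42418 in the totals. Over the 63 named members, leaving out a library kept 4904 values on their side of the threshold, with 22 newly past it and 10 lost, these being Slc41a2 (5), Slc30a1 (4) and Slc39a14 (1). At 0.708 to 1.182 CPM for 3 counts, differences among members near that level were not detectable at this depth.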
